A study of Mus musculus with 12 samples.

Results

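Oxidative phosphorylation (OXPHOS) was described here through 93 nuclear genes, of 22519 gene identifiers listed at both ages of mouse liver studied by single-cell RNA sequencing. The members were chosen by symbol alone: the Ndufa, Ndufb, Ndufs and Ndufv genes of complex I together with the Ndufaf assembly factors, Sdha to Sdhd of complex II, the Uqcr genes of complex III, the Cox4 to Cox8 genes of complex IV, and the Atp5 genes of complex V. By role they comprised 34 subunits of complex I, 4 of complex II, 8 of complex III, 19 of complex IV, 18 of complex V and 10 assembly or accessory genes. Ndufc1, Ndufc2, Cyc1, Cycs and Atpif1 lay outside the symbol rule. The symbol rule itself used no measured value, although it was set with earlier results of these data known.

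Livers, and spleens at P3, came from crosses of Jag1Ndr/+ parents, sampled as embryos at E16.5 or as pups at P3. Jag1 encodes a Notch ligand, and Jag1Ndr is a missense allele of it carried in the germ line. The groups were Jag1+/+, Jag1Ndr/+ and Jag1Ndr/Ndr at each age, and the design names 2 individuals per genotype and age. Every library is labelled as liver, and what became of the spleens is not given in the sources used here. Every suspension passed a magnetic removal of dead cells. TrypLE Express, a protease reagent, was added only at E16.5, and the P3 Jag1Ndr/Ndr pups were picked by their jaundice.

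OXPHOS couples the oxidation of NADH and succinate to ATP synthesis across the inner mitochondrial membrane. Complexes I and II feed electrons to ubiquinone, complex III passes them to cytochrome c, complex IV reduces oxygen, and complex V uses the resulting proton gradient to make ATP. The mitochondrial genome encodes a few core subunits, and all others are nuclear genes, several of them with paralogs used in particular tissues. Hepatocytes are rich in mitochondria, the fetal liver is a main site of blood formation, and erythroid cells discard their mitochondria as they mature.

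The libraries did not match 12 independent individuals. The matrices labelled E16.5 Jag1+/+ replicate 2 and E16.5 Jag1Ndr/+ replicate 2 were identical, so they entered as 1 sample, named the shared library. At P3, 68.4% of the barcodes of Jag1+/+ replicate 1 were also in Jag1Ndr/Ndr replicate 1 and 62.15% in Jag1Ndr/Ndr replicate 2. All barcodes of Jag1Ndr/+ replicate 2 were in Jag1+/+ replicate 2, and 73.8% of the latter were in Jag1Ndr/Ndr replicate 2, whereas libraries with unrelated cells shared at most 1.72%. Jag1+/+ replicates 1 and 2 of P3 were therefore kept with their genotype taken as unclear (libraries A and B), Jag1Ndr/Ndr replicate 1 was used without the barcodes of library A, and Jag1Ndr/+ replicate 1 was used as deposited. The comparisons thus had 5 E16.5 and 4 P3 libraries, with 18357 to 29034 and 15024 to 21504 passing barcodes and median depths of 5325 to 9256 and 2961 to 6235 unique molecular identifiers (UMIs, counted transcript copies). Age went together with TrypLE, the dissection of spleens, the picking of Jag1Ndr/Ndr pups by jaundice, the version of the 10x software and the length of the gene list, so that these cannot be told apart from development in any comparison of ages. E16.5 Jag1Ndr/+ replicate 1 stood above the other E16.5 libraries in the summed level of the genes in several classes, and counts without it are given beside the comparisons of age.

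Promoters of the members are shown first, for sequence motifs that part of the genes share. Of the 93 genes, 75 had an entry among the RefSeq promoters (GRCm38.p6, from 250 bases before to 50 after the start site), 73 by symbol and 2 by synonym. The NRF1 motif, GCGCA and GCGC with any base between them, bound by a transcription factor of nuclear mitochondrial genes, stood on either strand in 18 of the 75, or 24% against 4.78% of all 27025 promoters. The YY1 motif AAGATGGCG was in 8% against 1.49%, the oestrogen-related receptor (ERR) motif TCAAGGTCA in 2.67% against 0.407%, the ETS motif CCGGAAGT in 6.67% against 4%, and the cyclic AMP response element TGACGTCA in 5.33% against 1.88%. In all, 30 promoters held at least 1 of these motifs and 5 held a pair of them, with no overlap between matches of different motifs. A match describes letters and is not a measured binding site, and base composition was not matched between the members and all promoters. The lines give windows of 90 bases just upstream of the start site on the gene's strand, 5′ to 3′, with motif matches in capitals. The genes are ones the results below turn on: a complex II pair, both members with an NRF1 match, a complex V pair, and a complex III pair.
Sdha, chr13:74350241-74350330, minus strand, NRF1: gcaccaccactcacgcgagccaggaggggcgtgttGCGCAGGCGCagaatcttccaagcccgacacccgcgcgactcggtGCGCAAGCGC
Sdhd, chr9:50603850-50603939, minus strand, NRF1: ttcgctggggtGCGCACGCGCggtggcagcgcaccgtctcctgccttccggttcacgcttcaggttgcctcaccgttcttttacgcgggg
Atp5k, chr5:108434400-108434489, minus strand, NRF1: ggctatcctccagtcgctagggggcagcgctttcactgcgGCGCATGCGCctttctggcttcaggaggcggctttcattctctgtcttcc
Atp5g3, chr2:73911327-73911416, minus strand, ERR: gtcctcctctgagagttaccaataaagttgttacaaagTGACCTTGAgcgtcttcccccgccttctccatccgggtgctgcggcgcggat
Uqcrh, chr4:116075071-116075160, minus strand, ETS: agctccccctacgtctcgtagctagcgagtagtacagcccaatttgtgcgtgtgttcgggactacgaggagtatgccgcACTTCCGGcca
Uqcrfs1, chr13:30545317-30545406, minus strand, cyclic AMP response element: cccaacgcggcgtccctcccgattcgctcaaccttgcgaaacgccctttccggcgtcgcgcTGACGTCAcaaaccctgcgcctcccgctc
The members lay on 19 chromosomes.

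Cells were grouped into 15 classes by clustering without the 93 genes and without genes encoded by mitochondrial DNA, and each class was named from marker genes. A named cluster had at least 3 detected markers of its class. Albumin (Alb) reached 39524 CPM (UMI counts scaled to a common library total) on average in hepatocyte-like cells at E16.5 and at most 892 in any other class, and 13957 against at most 320.2 at P3. These class means cover unlike clusters. At E16.5 the class held a cluster of 3316 cells with 40.7% to 61% globin UMIs by library and one of 632 cells with 3.97% to 7.56%, with Alb at 21658 to 27554 and 65918 to 87938 CPM, here with globin and mitochondrially encoded genes left out of the total, against at most 4951 in erythroid-like clusters. At P3 a cluster of 597 cells had 0.551% to 1.84% globin and Alb at 19010 to 34485 on that scale. A P3 cluster of 560 cells had 55.4% to 71.2% globin and Alb at 1825 to 2676, and one of 122 cells in libraries A and B had Alb at 1890 and 3737. Erythroid-like clusters reached 1889 and 1369 in libraries A and B and at most 759 in the others, so that only the 597 cells stood far above them in every library. The globin-rich cluster reached 2676 in Jag1Ndr/+, against at most 624 in erythroid-like clusters there. In library B the smallest cluster reached 3737 against 1369. In library A the globin-rich cluster, at 1825, lay below the highest erythroid-like cluster and the smallest one was level with it, so that Alb went against the hepatocyte-like name of the globin-rich cluster there. No class of cholangiocyte-like cells was named. Globin UMIs made up 29.6% to 54.8% of the E16.5 libraries and 15.9% to 23.7% of the P3 ones, and in classes other than erythroid-like cells they ran by class mean from 8.85% to 28.1% (E16.5) and from 0.36% to 24% (P3). The part of this globin-bearing background in the class levels was not tested. Summed levels are therefore given as CPM of the 93 genes with globin and mitochondrially encoded genes left out of the library total, called CPM outside globin and mitochondrial genes.

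In CPM outside globin and mitochondrial genes, hepatocyte-like and erythroid-like cells had the highest mean summed levels at E16.5. On that scale hepatocyte-like cells had the highest at P3, and neutrophil-like cells had the lowest at both ages. For neutrophil-like cells the counts on the normalised scale, given below, had another order. At E16.5 the mean was 35453 ± 3194 (SD, n = 5) in erythroid-like and 33003 ± 2779.5 (n = 5) in hepatocyte-like cells, which overlapped, against 15035 ± 1834 (n = 5) in neutrophil-like cells. At P3 hepatocyte-like cells stood at 47147, 44058, 38904 and 36121 in library A, library B, Jag1Ndr/Ndr and Jag1Ndr/+, from 612, 330, 186 and 177 cells. These values lay above every other class sum of that age, followed by mean by monocyte-like cells at 30911 ± 2197 (n = 4), T and NK-like cells at 30597 ± 2081 (n = 4) and erythroid-like cells at 30346 ± 2609 (n = 4). In the 3 hepatocyte-like clusters of P3 the summed level ran from 36506 to 50339 by library in the Alb-rich cluster, from 33281 to 38042 in the globin-rich one and stood at 32756 and 36333 in the smallest. Neutrophil-like cells at P3 lay between 11912 and 13332, below every other class. Of the remaining classes, T and NK-like cells had 1 library at E16.5, at 32041, and the others had means between 25413 and 31210 at E16.5 and between 21234 and 30911 at P3. In that order neighbouring means differed by less than the larger of their SDs.

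**Figure D1:**
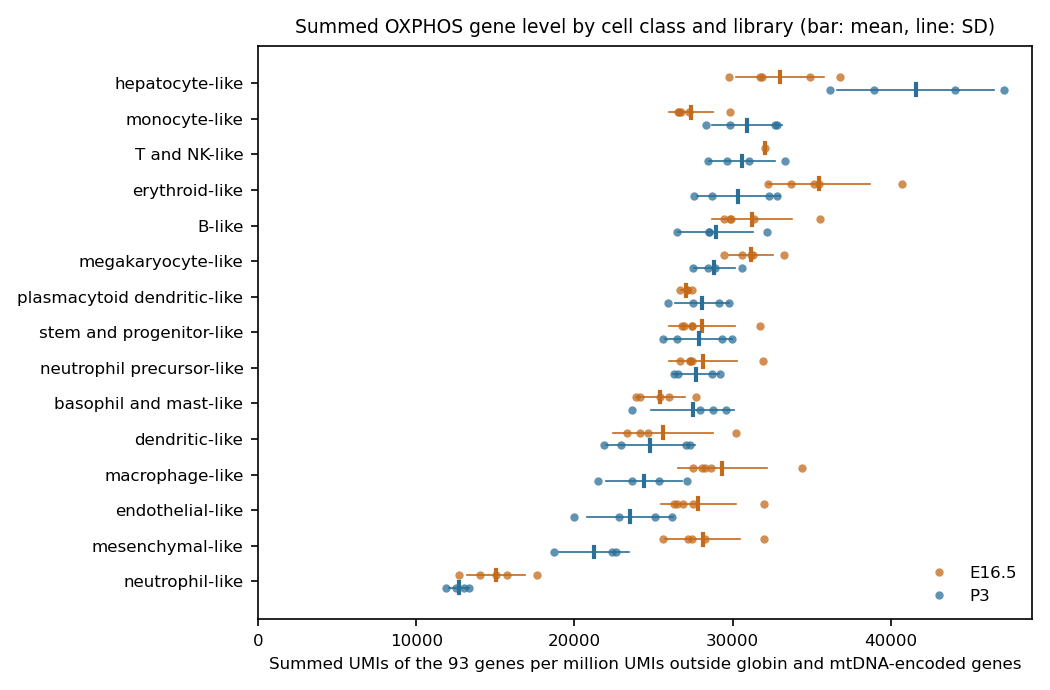
Summed level of the 93 OXPHOS genes (x axis, CPM outside globin and mitochondrial genes) in each cell class (y axis) at E16.5 and P3; points are libraries with at least 20 cells of the class, vertical bars means and horizontal lines SD. Hepatocyte-like cells at P3 lie between 36121 and 47147 and neutrophil-like cells of both ages lie at 17629 or below.

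The members were then compared with each other over the classes. The log2 class mean of a member correlated with that of the sum of the others with a median Pearson r of 0.82 over 15 classes at E16.5 (85 members reaching a level of 20 in some class) and 0.86 at P3 (86 members). The correlation was above 0.5 for 77 and 76 of these members. Neutrophil-like cells were the lowest class for 79 of the 85 and 76 of the 86, and without them the median r was 0.59 and 0.70. Other genes that reached the same level had a median r with the summed members of 0.22 and 0.13, and of −0.07 and −0.22 without neutrophil-like cells. Neutrophil-like cells also had the lowest summed levels of mitochondrial and cytoplasmic ribosome genes at both ages. The points share libraries and depth, so this is a description only. The lowest values belonged to the paralogs Cox6a2, Ndufa4l2 and Cox6b2 at both ages and to Cox4i2 at P3, the age at which it reached that level.

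**Figure D2:**
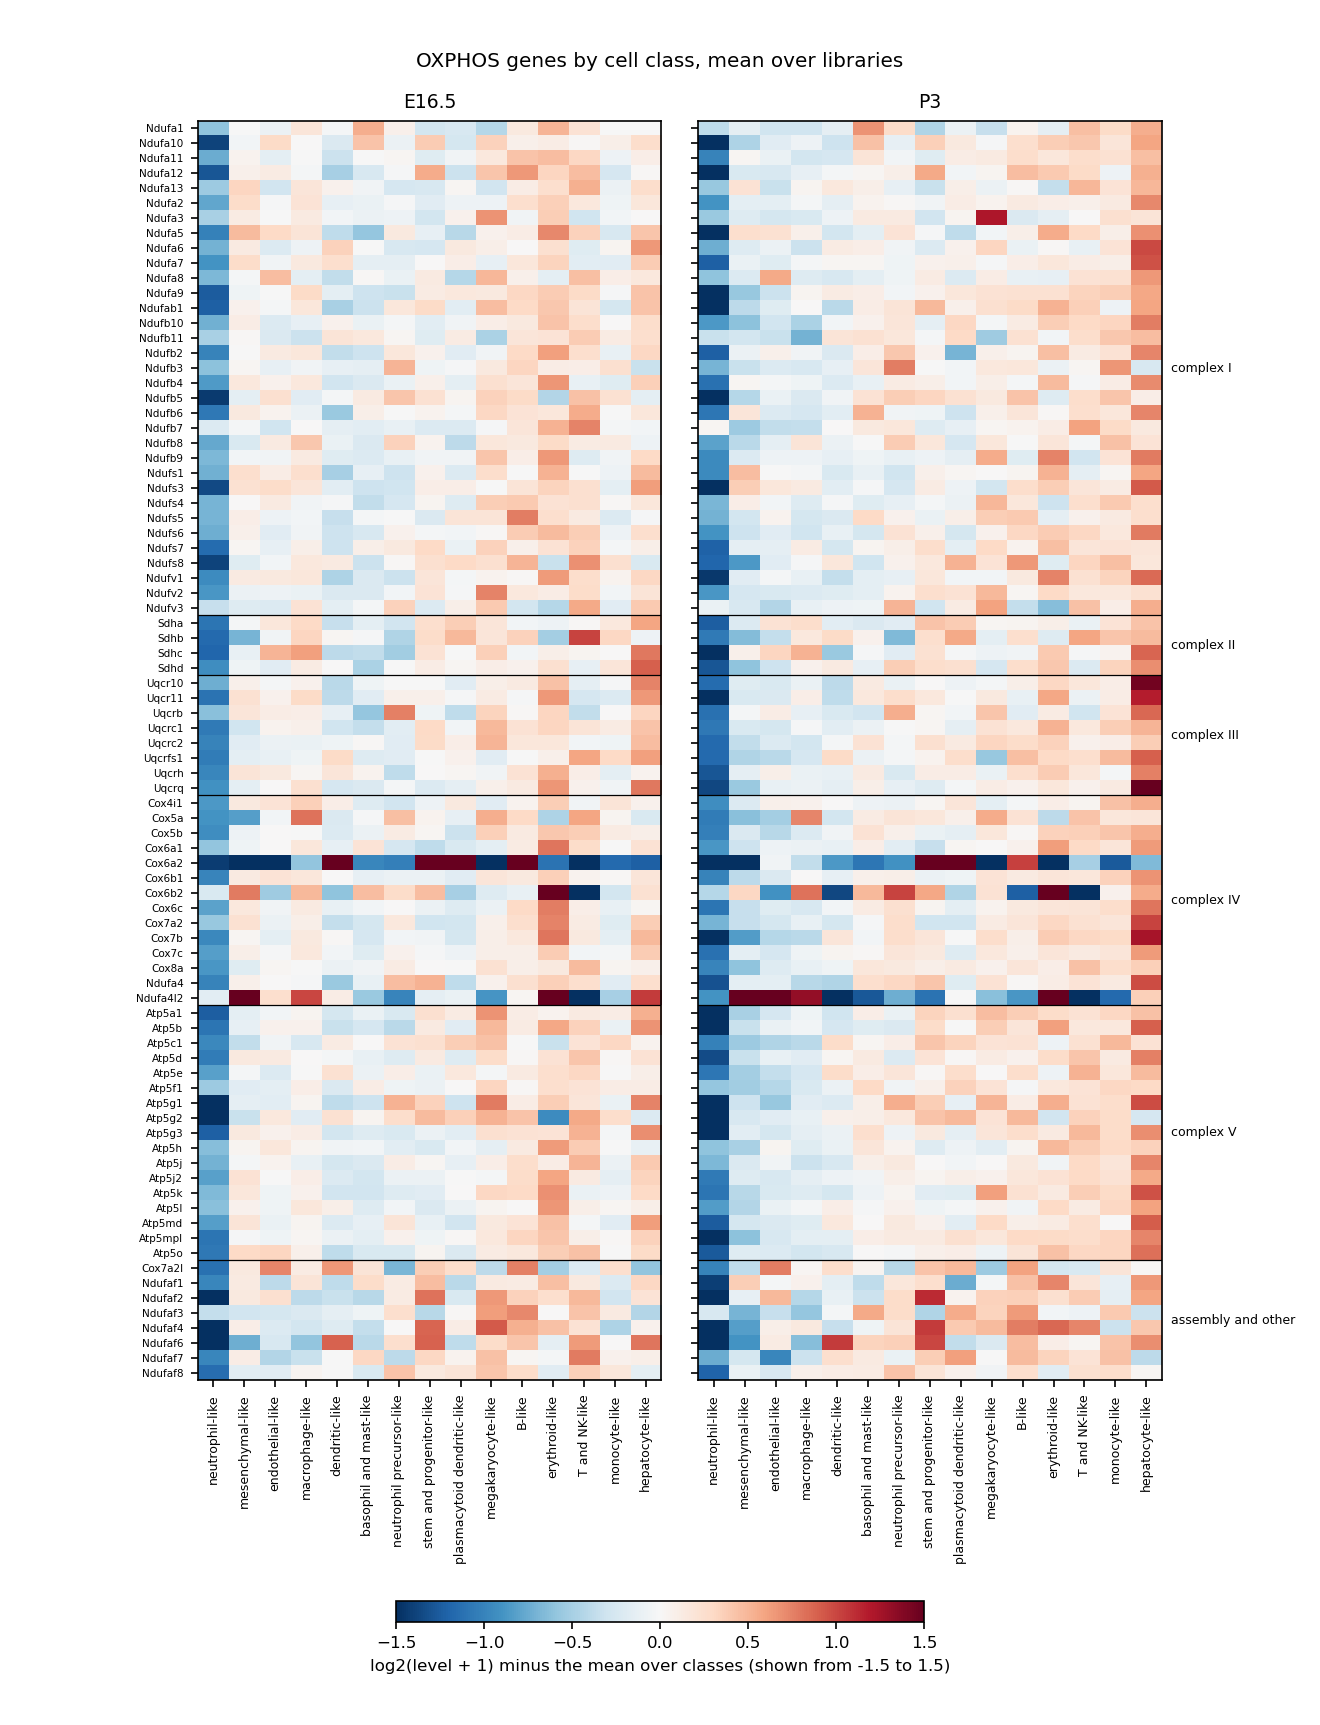
Level of 84 OXPHOS genes (rows, ordered by complex) in each cell class (columns) at E16.5 and P3, as log2(level + 1) minus the mean of the row over classes, where the level is the mean over libraries of CPM outside globin and mitochondrial genes. The neutrophil-like column is low and the P3 hepatocyte-like column is high for most rows, while Cox6a2, Cox6b2 and Ndufa4l2 follow patterns of their own.

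Each class was compared with the mean of the other classes of the same age with edgeR's quasi-likelihood test on summed counts, library as a block, and a pair of class and gene was called at a Benjamini-Hochberg adjusted p below 0.05 over all pairs. Values in these comparisons are normalised CPM, that is CPM after TMM scaling, which balances libraries on their typical gene. Of all pairs of member and class, 797 of 1246 were called at E16.5 and 785 of 1335 at P3, beside 51.7% and 49.4% of pairs of any gene. Since the share called was large for all genes, the direction and size within a class carry more than the count. The class sums of an age share its libraries and are not independent animals, so small p-values here do not stand for many replicates.

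Hepatocyte-like cells had 74 members higher and 3 lower of 89 at E16.5, with a median log2 difference of 0.46 against 0.05 over all genes (67% of all genes called). At P3 82 were higher and none lower, with a median of 1.06 against 0.08 (55.9% called), and 80 to 84 were higher with none lower under every alternative run. With only clusters under 10% globin, a setting chosen after seeing the data, 69 were higher and 7 lower at E16.5, and 81 higher and none lower at P3, where that set also held the smallest, Alb-poor cluster. All 8 complex III members and all 4 complex II members were higher at both ages. The 13 mitochondrially encoded subunits were higher in this class at both ages too.

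Complex III had the largest median difference, 1.37, in hepatocyte-like cells at P3. Uqcrq, a small subunit of complex III, reached 1944 to 2269 normalised CPM in the 4 libraries against 202 to 585 in the other 55 class sums, a log2 difference of 2.52 ± 0.06 (SE, adjusted p = 5e-42). Uqcr10, another small subunit of the same complex, reached 1358 to 1608 against 229 to 649 (1.96 ± 0.06, adjusted p = 5e-36). Neither gene's hepatocyte-like range overlapped that of the other classes.

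Other complexes followed with smaller margins at P3. In complex IV, Cox7b was higher by 1.75 ± 0.07 and Cox7a2, the liver-type form of its family, by 1.50 ± 0.06. In complex I, the accessory subunits Ndufa6 and Ndufa7 were higher by 1.48 ± 0.07 and 1.43 ± 0.07, and in complex V, Atp5g1, 1 of 3 genes for subunit c of the rotor, and Atp5md by 1.47 ± 0.07 and 1.39 ± 0.07. All 6 had hepatocyte-like ranges above those of every other class sum. Sdhc, a membrane anchor of complex II, was at 120 to 178 against 28.2 to 99.4 (1.38 ± 0.09), and Sdha, its catalytic flavoprotein, at 147 to 172 against 47.5 to 125 (0.86 ± 0.07).

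At E16.5, 4 members met the rule by which genes were named, which asks for ranges without overlap, against 38 at P3. Of all genes that reached the mean level the rule asks for, 9.54% met it at E16.5 and 10.6% at P3, beside 4.88% and 45.8% of such members. Sdhd, the second membrane anchor of complex II, was at 203 to 260.1 normalised CPM in the 5 libraries against 64.2 to 179 in 63 other class sums (1.14 ± 0.05, adjusted p = 1.5e-29). Atp5g3, another gene for subunit c, was at 647 to 770.5 against 208 to 611 (0.97 ± 0.05). Uqcrfs1, the Rieske iron-sulphur protein of complex III, was higher by 0.88 ± 0.05.

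Erythroid-like cells had 74 members higher and 7 lower of 89 at E16.5 (69.7% of all genes called; median 0.61 against 0.02) and 61 higher and 5 lower at P3 (67.2%; median 0.35 against −0.05). At P3 the split was 51 and 20 with DESeq2 and 47 and 14 with RLE size factors. The complex IV form Cox6b2, best known from testis, was at 148 to 210 normalised CPM at E16.5 against 13.5 to 71.8 elsewhere (2.22 ± 0.07) and at 308 to 369 against 3.84 to 127 at P3 (3.16 ± 0.08, adjusted p = 2.4e-39). Ndufa4l2, a hypoxia-induced relative of the complex IV subunit Ndufa4, was higher by 2.73 ± 0.11 at E16.5, where its 34.6 to 53.3 did not overlap the 0 to 26.9 of the other sums. Atp5k and Atp5l, small subunits of the membrane part of complex V, were higher by 0.99 ± 0.05 and 0.97 ± 0.05, and Uqcrh, the hinge protein of complex III, by 0.84 ± 0.04.

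Within erythroid-like cells the genes were read along clusters ordered by their globin share. At P3 the summed level was 31513 ± 3012 (SD, n = 4) in the cluster with 0.596% globin, 22826 ± 2754 (n = 4) at 77.2% and 26504 ± 2776 (n = 4) at 89.2%. At E16.5 cluster means over libraries lay between 30330 and 39634. The cluster at 39634 had 7411 of its 7537 cells in Jag1Ndr/Ndr replicate 1, at 36775. Its 37 cells of Jag1+/+ replicate 1 and 89 of Jag1Ndr/+ replicate 1 stood at 40705 and 41423. Differences between E16.5 clusters are thus mixed with differences between libraries. Mitochondrially encoded UMIs per UMI of the 93 genes stood at 1.79 ± 0.27 and 21.8 ± 12.1 in the first and the last of these P3 clusters. At E16.5 the cluster means of this ratio lay between 1.31 and 4.36, and single clusters of a library between 0.95 and 6.78. These are levels relative to what was left outside globin, without a test, since the clusters come from the same libraries.

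**Figure D3:**
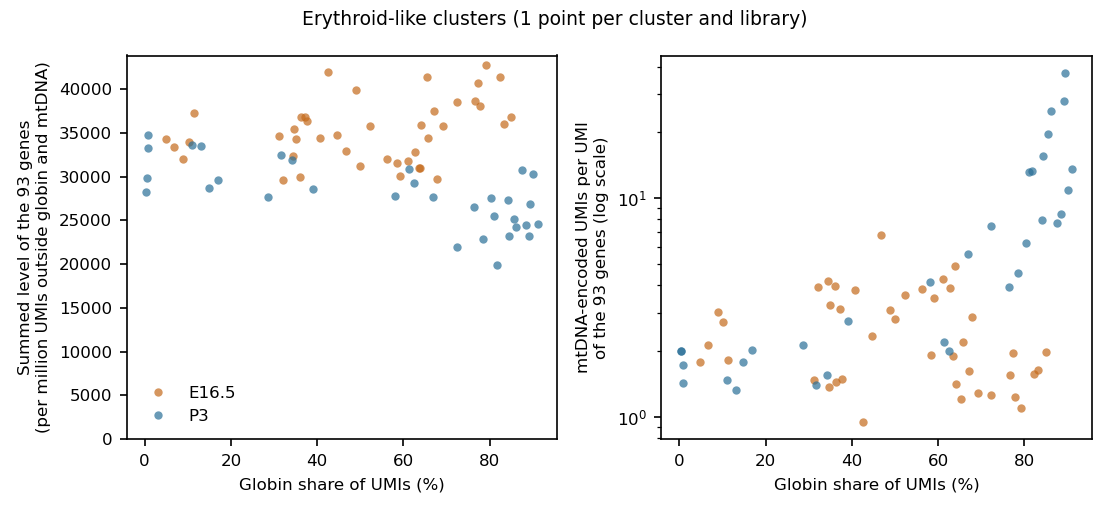
Erythroid-like clusters, 1 point per cluster and library: the globin share of UMIs (x axis, percent) against the summed level of the 93 genes (left, CPM outside globin and mitochondrial genes) and against mitochondrially encoded UMIs per UMI of the 93 genes (right, log axis). At P3 the right-hand ratio is highest in the clusters with the largest globin share, with a cluster mean of 21.8 at 89.2% globin, and at E16.5 the cluster means stay at 4.36 or below.

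Neutrophil-like cells had 12 members higher and 52 lower at E16.5 (65.8% of all genes called; median −0.24 against −0.09) and 17 higher and 43 lower at P3 (66.1%; −0.18 against −0.11). The split depended on single libraries: at P3 it was 26 higher and 25 lower without Jag1Ndr/+, and at E16.5 it was 20 and 37 without the shared library, 19 and 38 without Jag1Ndr/+ replicate 1 and 7 and 52 without Jag1Ndr/Ndr replicate 2. In the main run endothelial-like and mesenchymal-like cells, given below, had more members lower than neutrophil-like cells on this normalised scale. The lowest place of neutrophil-like cells thus belongs to CPM outside globin and mitochondrial genes. Ndufb7, an accessory subunit of complex I, was higher in neutrophil-like cells at P3 on the normalised scale, with 555 to 629 against 165 to 507 (1.03 ± 0.06). In CPM outside globin and mitochondrial genes, however, its 362 ± 48.9 (n = 4) lay inside the range of other classes, from 243 ± 15.4 (n = 3) in mesenchymal-like to 540 ± 79.2 (n = 4) in T and NK-like cells, so its place depended on the scaling. On the normalised scale, glycolysis genes had 12 higher and 6 lower of 19 in neutrophil-like cells at both ages. In erythroid-like cells they had 4 higher and 11 lower at E16.5 and 4 higher and 13 lower at P3. These counts were not made in CPM outside globin and mitochondrial genes.

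Endothelial-like cells had 5 members higher and 61 lower at E16.5 (60.2% of all genes called) and 3 higher and 72 lower at P3 (53.1%). Mesenchymal-like cells had 2 higher and 69 lower at E16.5 (45.5%) and 1 higher and 68 lower at P3 (42.8%), although at E16.5 the lower count was 26 with DESeq2 and also with RLE size factors in edgeR. Macrophage-like cells were split at E16.5, with 18 higher and 21 lower (51%), and had 5 higher and 62 lower at P3 (55.3%).

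Members of a paralog family can replace each other in a complex, and the share of each form is independent of scaling. Near-identical copies can share reads, and how such reads were counted is not given in the sources used here. In the Cox6a family, Cox6a1 is the widely expressed form and Cox6a2 the heart and muscle form. Cox6a2 held 69.2% (95% exact binomial interval 66.6 to 71.8; 863 of 1247 UMIs) of the family in plasmacytoid dendritic-like cells at E16.5 and 69.5% (66.7 to 72.2; 787 of 1132) at P3. The libraries gave 79.3% (Jag1+/+ replicate 1), 55.9% (shared library), 68.3% and 71% (Jag1Ndr/Ndr replicates 1 and 2) at E16.5, and 66.4%, 69.9%, 69.8% and 75.8% in library A, library B, Jag1Ndr/Ndr and Jag1Ndr/+ at P3. Every one of these 8 libraries thus had more Cox6a2 than Cox6a1 UMIs in this class. Stem and progenitor-like cells followed with 8.4% and 11.6%, whereas erythroid-like cells had 0.0849% and 0.0447%. The intervals cover counting error only.

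The level of Cox6a2 in plasmacytoid dendritic-like cells was 658 ± 168 (n = 4) at E16.5 and 817 ± 314 (n = 4) at P3 in CPM outside globin and mitochondrial genes, against 0.38 ± 0.53 (n = 5) and 1.17 ± 0.93 (n = 4) in hepatocyte-like cells. The genes whose log2(CPM + 1) was most like Cox6a2 over 69 sums of class and library at E16.5 were Ccr9, Siglech and Ly6d (Pearson r of 0.92, 0.90 and 0.88), and over 59 sums at P3 Siglech, Havcr1 and Pacsin1 (0.90, 0.89 and 0.88). Ccr9, Siglech and Ly6d are on the marker list used to name this class, so their likeness to Cox6a2 restates the class. In sums that share libraries these are descriptions. Between ages Cox6a2 in this class was not called, at 372 to 723 and 420.5 to 995 normalised CPM (0.23 ± 0.24, edgeR adjusted p = 0.46, where 32.2% of all genes were called).

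The Cox6b family was split differently. Cox6b2 held 23.6% (23.4 to 23.8) of it in erythroid-like cells at E16.5, from 21.3% to 27.5% over libraries, and 37.7% (37.3 to 38) at P3, from 34.8% to 39.5%, so that the ranges of the ages did not overlap. The lowest share, in T and NK-like cells at P3, was 1.57%. In all other classes at P3 the share lay at 17% or below, with Cox6b1 as the main form.

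Cox4i2, the lung form of the Cox4 subunit, reached its highest share in stem and progenitor-like cells, 1.19% at E16.5 and 2.19% at P3, the remainder being Cox4i1, and within this class its log2 difference between ages was 1.32 ± 0.29 (edgeR, adjusted p = 0.0017). In whole libraries Cox4i2 was at 1.47 and 0.977 normalised CPM in libraries A and B, against 0.57 in P3 Jag1Ndr/Ndr and 0.477 in P3 Jag1Ndr/+. Without A and B its whole-library difference was −0.14. The genes most similar to Cox4i2 at P3 were Camk2a, Ticam2 and Dntt (0.68, 0.59 and 0.58). Cox7a1, the muscle form of Cox7a, stayed at or below 0.657% of its family in every class, with Alpl, Gfra1 and Tufm (0.61, 0.60 and 0.59) and Ippk, Gm8369 and Zbtb2 (0.54, 0.53 and 0.51) as the most similar genes at low counts. Cox7a2l, a factor of supercomplex assembly, held 12.6% to 40% of the Cox7a UMIs at E16.5 and 26.2% to 58.5% at P3 over classes, the rest being Cox7a2. Cox7b2, Cox8b and Cox8c were barely detected, with 3, 10 and 2 UMIs over all libraries, so that Cox7b and Cox8a made up these families.

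Ndufa4l2 held 4.08% of the Ndufa4 family in erythroid-like cells at E16.5, from 3.53% to 4.64% over libraries, and 7.1% at P3. The P3 libraries disagreed, with 8.29% and 14% in libraries A and B against 2.76% and 2.99% in Jag1Ndr/Ndr and Jag1Ndr/+. Its most similar genes were Slfn14, Slc43a1 and Tfdp2 at E16.5 (0.81, 0.81 and 0.80) and Col5a1, Pkhd1l1 and Runx1t1 at P3 (0.84, 0.83 and 0.81). In the Atp5g family, whose 3 genes encode the same mature protein, Atp5g1 held the largest share in erythroid-like cells at E16.5 (39.8%) and, at P3, in hepatocyte-like (52.1%) and erythroid-like cells (49.9%). Atp5g2 was the main form in plasmacytoid dendritic-like cells, with 50.2% and 57.2%. Atp5g3 held 22.9% to 37.8% over classes at E16.5 and 13.2% to 20.4% at P3.

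**Figure D4:**
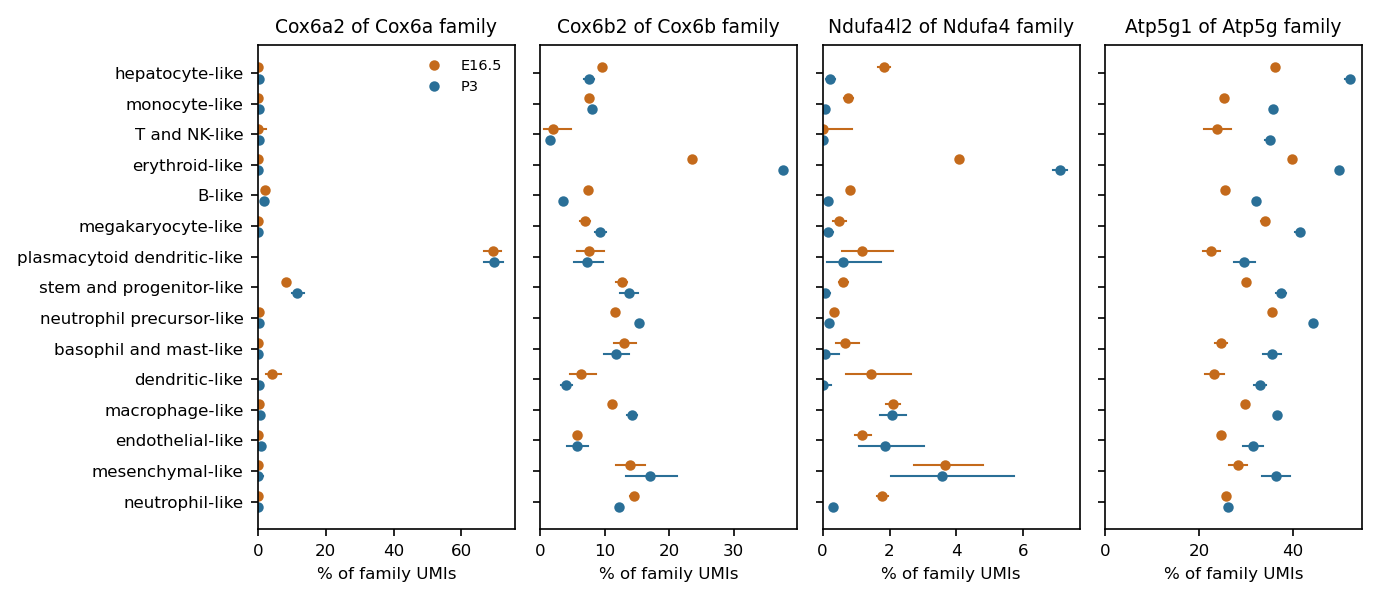
Share of the family's UMIs (x axes, percent) held by Cox6a2, Cox6b2, Ndufa4l2 and Atp5g1 in each class (y axis) at E16.5 and P3, over all libraries of an age; lines are 95% exact binomial intervals, which cover counting error only. Cox6a2 stands near 69% in plasmacytoid dendritic-like cells, and Cox6b2 at 23.6% and 37.7% in erythroid-like cells.

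The comparison of ages asked which members differed between P3 and E16.5 in whole libraries, where fewer cells of a type and less RNA per cell cannot be told apart. Of 89 members tested, 13 were higher and 26 lower at P3, or 43.8% against 54% of all genes tested. Of all genes 27.6% were higher and 26.4% lower, so the lower count of the members was near its share and the higher count was below its own. The same shares stand beside the counts by complex below. The median log2 difference was −0.12, against 0.02 over all genes, and without E16.5 Jag1Ndr/+ replicate 1 the counts were 17 higher and 23 lower. With libraries A and B left out, a setting chosen after seeing the data, 12 were higher and 13 lower. The ranges of the ages did not overlap for 27 members, or 30.3% against 43.9% of all genes. The 4 genes not tested had 2 to 10 UMIs in all: Cox7b2, Cox8b, Cox8c and the second Atp5o identifier, with 5. The order of the summed level depended on the denominator, with 15272 ± 1877 (SD, n = 5) CPM over all UMIs at E16.5 and 19716 ± 1656 (n = 4) at P3, but 30186 ± 2690.4 and 26483 ± 2567 CPM outside globin and mitochondrial genes.

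Complex I members were split, with 7 higher and 8 lower of 34. Ndufa1, an accessory subunit of the membrane arm, was at 137, 130.5, 194, 149 and 157 normalised CPM at E16.5 (in order Jag1+/+ replicate 1, shared library, Jag1Ndr/+ replicate 1, then both Jag1Ndr/Ndr replicates), against 57.4, 52.5, 46.7 and 49.2 in P3 library A, library B, Jag1Ndr/Ndr and Jag1Ndr/+. Every P3 value lay below every E16.5 value, and the log2 difference was −1.58 ± 0.14 (SE, adjusted p = 1.5e-05). Ndufb3, also of the membrane arm, differed by −1.37 ± 0.15, and Ndufab1, the mitochondrial acyl carrier protein, differed by −0.88 ± 0.16, both without overlap.

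Complex II members differed among themselves. Sdhd was at 99.3, 81, 107, 106 and 90.6 in the 5 E16.5 libraries and at 28.6, 29.2, 27.2 and 31.8 in the 4 P3 libraries, in the order given above. The groups were far apart, with a log2 difference of −1.73 ± 0.12 (adjusted p = 3.5e-06). Sdhb, the iron-sulphur subunit, went the other way, from 37.5 to 71 at E16.5 to 72.6 to 105 at P3 (0.73 ± 0.18, adjusted p = 0.0064). Sdha, at 56.1 to 73.9 and 51 to 64.4, and Sdhc, at 40.9 to 49.6 and 36.3 to 49.3, overlapped between ages and were not called (adjusted p = 0.37 and 0.42).

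Complex III had 1 member higher and 2 lower of 8. Uqcrc1, a core protein of the complex, was at 53.8, 45.8, 60.2, 55.5 and 51.5 in the E16.5 libraries and 137, 118, 192 and 133 in the P3 libraries (1.44 ± 0.15, adjusted p = 3.6e-05). All P3 values were above all E16.5 values, the reverse of Uqcrb, a ubiquinone-binding subunit, at 301 to 496 and 138 to 213 (−0.998 ± 0.19).

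In complex IV 7 members were lower and none higher of 16 tested. Cox6c, a small nuclear subunit, was at 707, 626, 1030 and 677 in the first 4 E16.5 libraries and 782 in the fifth, against 353, 279, 365 and 352 at P3 (−1.18 ± 0.17, adjusted p = 0.00026). The groups did not overlap, and Cox7c (−1.07 ± 0.14) and Ndufa4 (−1.14 ± 0.17), also small subunits, had the same order without overlap. Cox4i1, a subunit that carries regulatory sites, overlapped between ages at 457 to 729 and 567 to 776 and was not called (0.25 ± 0.16, adjusted p = 0.22).

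In complex V 6 members were lower and 1 higher of 17, and the genes for subunit c differed among themselves. Atp5g3 was at 316, 308, 398, 297 and 326 at E16.5 and at 147, 119, 155 and 139 at P3 (−1.23 ± 0.13, adjusted p = 4.8e-05). Atp5g1 and Atp5g2 overlapped between ages and were not called (0.02 ± 0.19 and −0.03 ± 0.21). Among the 10 assembly and accessory genes 3 were higher and 2 lower, with Cox7a2l at 94.7 to 152 and 192 to 223 (0.70 ± 0.15, adjusted p = 0.0023).

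Ages were next compared within each of 14 classes, so that a change in the mix of classes no longer enters through the cells summed. The globin-bearing background in the classes, described above, can still carry that mix, and its part was not tested. Of 1190 pairs of member and class, 243 were higher and 216 lower at P3, or 38.6% against 42.7% of pairs of any gene. A set of 5 members was lower in all 14 classes: Sdhd, Ndufa1, Ndufb3, Atp5g3 and Cox7c. Of the 3712 genes tested in all 14 classes, 4.9% were lower in every one and 1.99% higher, beside 5 and 1 of 78 members, which is near that background. Uqcrc1 was higher in all 14, Ndufs7, a core iron-sulphur subunit of complex I, in 13, and Sdhb in 11. Between classes the log2 difference of Sdhd ran from −2.02 in mesenchymal-like to −1.34 in neutrophil precursor-like cells, and that of Uqcrc1 from 1.02 in endothelial-like to 1.77 in monocyte-like cells. Sdha was called in no class. Without E16.5 Jag1Ndr/+ replicate 1, 499 pairs were called and not 459. For these genes too, age cannot be told apart from what went together with it, which all classes of an age shared.

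The pairs were also counted by complex, without a test between complexes. Complex I had 123 pairs higher and 66 lower, complex III 30 and 19, and the assembly genes 31 and 5, whereas complex II had 11 and 17, complex IV 23 and 66, and complex V 25 and 43. In that order these parts hold 34, 8, 10, 4, 19 and 18 members, not all of them tested in each class. Over pairs of any gene, 21.2% were higher and 21.5% lower. Single genes recur in these counts: Sdhb gave all 11 higher pairs of complex II and Sdhd 14 of its 17 lower ones, and Uqcrc1 gave 14 of the 30 higher pairs of complex III and Uqcrb 12 of its 19 lower ones. By class, hepatocyte-like cells had 44 higher and 7 lower of 87 (of all genes, 21.3% higher and 19.8% lower, 41.1% in all). Monocyte-like cells had 41 and 10 of 88 (24.6% and 24.4%, 49% in all). Endothelial-like cells had 4 and 33 of 86 (15.2% and 17.1%, 32.3% in all). Macrophage-like cells had 4 and 28 of 87 (23.3% and 23.9%, 47.2% in all). Mesenchymal-like cells had 5 and 19 of 79 (14.4% and 15.2%, 29.6% in all). Erythroid-like cells had 9 and 23 of 87 (26% and 24.7%, 50.6% in all), a lower count near the share of all genes. In endothelial-like cells the lower count was 21 without library B. Without E16.5 Jag1Ndr/+ replicate 1 the counts were 7 higher and 27 lower in endothelial-like, 9 and 26 in macrophage-like, 6 and 15 in mesenchymal-like and 44 and 9 in monocyte-like cells. Over all settings run, the higher count of monocyte-like cells ran from 34 to 44.

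In hepatocyte-like cells the median log2 difference was 0.45 against −0.03 over all genes. Without E16.5 Jag1Ndr/+ replicate 1 the counts were 48 higher and 6 lower, and with only clusters under 10% globin, a setting chosen after seeing the data, they were 56 and 4. Over all settings run, the higher count ran from 33 to 56 and the lower count from 4 to 7. Uqcrq was at 347, 363, 475, 418 and 398 normalised CPM at E16.5 and at 1225, 1193, 1327 and 1436 at P3 (1.69 ± 0.15, adjusted p = 2.8e-06). Uqcr10 was at 402 to 477 and 867 to 1011 (1.03 ± 0.14, adjusted p = 7.9e-05), and neither gene overlapped between ages. Cox7a2l (1.44 ± 0.17) and Sdhb (1.36 ± 0.22) were higher as well, and Ndufa4l2 was lower, at 10.5 to 17.7 and 0.301 to 4.95 (−2.88 ± 0.48, adjusted p = 0.0004).

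Erythroid-like cells had a median of −0.18. The class held a different mix of clusters at each age, with 61.5% globin UMIs on average at E16.5 and 42% at P3, where a cluster with 0.392% to 0.773% globin made up 11.2% of its cells, the lowest E16.5 cluster lying at 4.89% to 11.4%. The part of this mix in the age differences and in the interaction below was not tested. Without E16.5 Jag1Ndr/+ replicate 1 the counts were 16 higher and 23 lower. Cox6c was at 684, 583, 913, 706 and 722 at E16.5 and at 265, 222, 282 and 291 at P3 (−1.44 ± 0.17, adjusted p = 4.1e-05). Ndufa1 was lower by a wider margin, at 110.03 to 162 and 29.3 to 37.7 (−1.98 ± 0.15). Uqcrq overlapped between ages at 193 to 341 and 181 to 248 and was not called (−0.22 ± 0.18, adjusted p = 0.36). Cox6b2 was higher, at 73.4 to 104 and 133 to 156 (0.62 ± 0.13, adjusted p = 0.0032).

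**Figure D5:**
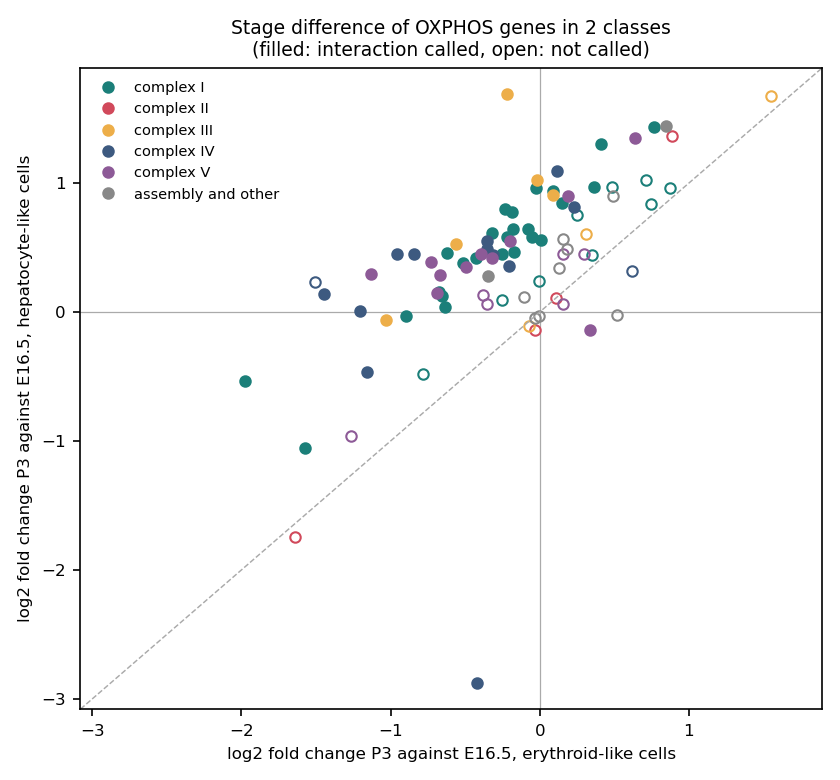
Log2 difference between P3 and E16.5 in erythroid-like cells (x axis) and in hepatocyte-like cells (y axis) for 87 OXPHOS genes, 1 point per gene coloured by complex. Uqcrq lies at −0.22 and 1.69, Cox6c at −1.44 and 0.14, and Sdhd at −1.64 and −1.74.

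The difference between these classes was tested itself, as an interaction of age and class. It was called for 56 of 88 members, 54 with the larger P3 over E16.5 value in hepatocyte-like cells and 2 with the smaller, or 63.6% against 27.8% of all genes, with a median of 0.64 against −0.06. Complex I had 25 of 34 called, complex III 5 of 8, complex IV 13 of 15, complex V 11 of 17, the assembly genes 2 of 10 and complex II none of 4. Both assembly genes, Cox7a2l and Ndufaf2, at 0.54 and 0.60, were no longer called with library sizes taken without globin and mitochondrially encoded genes (0.38 and 0.44, edgeR adjusted p = 0.0664 and 0.0526), with doublet calls kept (0.40 and 0.44, adjusted p = 0.0616 and 0.0607) or with the top 10% of doublet scores removed (0.39 and 0.45, adjusted p = 0.0664 and 0.0542). Nor was Cox7a2l called without library B (0.42, adjusted p = 0.0597) or Ndufaf2 without library A (0.53, adjusted p = 0.0661). Without E16.5 Jag1Ndr/+ replicate 1 the interaction had 51 members with the larger and 2 with the smaller value in hepatocyte-like cells. Uqcrq (1.87 ± 0.13, adjusted p = 1.8e-07), Cox6c (1.55 ± 0.14) and Ndufa1 (1.39 ± 0.13) were among those called, while Sdhd (−0.16 ± 0.19, adjusted p = 0.56) and Uqcrc1 (0.09 ± 0.16, adjusted p = 0.73) were not called. Ndufa4l2 went the other way (−2.76 ± 0.44, adjusted p = 0.00027). Cox6a2 was called (3.20 ± 1.00, adjusted p = 0.026) on 9 and 7 UMIs in hepatocyte-like cells, and without library A its adjusted p was 0.3. Globin UMIs averaged 26.9% at E16.5 and 24% at P3 in hepatocyte-like cells, against 61.5% and 42% in erythroid-like cells, and with only clusters under 10% globin 51 members had the larger and 2 the smaller value.

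Other genes of mitochondria were read beside the members. Over all genes the share called was 54% in whole libraries, 41.1% in hepatocyte-like cells, 50.6% in erythroid-like cells and 27.8% for the interaction. Of 13 mitochondrially encoded subunits, 2 were higher and 7 lower at P3 in whole libraries, 3 and 2 in hepatocyte-like and 3 and 5 in erythroid-like cells, and the interaction was called higher for 5. Of 78 mitochondrial ribosome genes 26 were higher and 11 lower in whole libraries, with 33 and 5 in hepatocyte-like and 27 and 8 in erythroid-like cells. Tricarboxylic acid cycle genes had 8 higher and 3 lower of 17 in hepatocyte-like and 2 and 6 in erythroid-like cells, whereas glycolysis genes had 1 and 5 of 18 in hepatocyte-like cells. In whole libraries the counts were 2 and 7 for the tricarboxylic acid cycle, 5 and 2 of 19 for glycolysis, 6 and 4 of 17 for regulators of mitochondrial genes, and 10 and 12 of 38 for assembly factors outside the symbol rule. The 5 subunits outside the rule had none higher and 3 lower, 88 cytoplasmic ribosome genes 20 and 13, and 10 globin genes none and 8.

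The question of the Jag1 genotype was tested at E16.5, with the 2 Jag1Ndr/Ndr libraries against the 3 others. No member of 89 was called in whole libraries by edgeR. Of all 14490 genes none was called either (0%), and 139 (0.959%) had an unadjusted p under 0.05. DESeq2 called 5 genes and no member. Log2 differences of the members ran from −0.26 to 0.50 with a median of −0.11 and a median SE of 0.25. The sign of that median rested on E16.5 Jag1Ndr/+ replicate 1, without which it was 0.13, again with no member called. The 0.50 belonged to Cox6a2, at 1.98 and 3.31 normalised CPM in Jag1Ndr/Ndr replicates 1 and 2 against 1.66 to 2.05 in the others. It thus rested on replicate 2 and on a low level. With a median SE of 0.25, the lack of calls does not exclude changes near that size. Within classes edgeR called no member in 1033 pairs and 1 of 116557 pairs of any gene (0.000858%), with 2118 pairs at an unadjusted p under 0.05, while DESeq2 called 12 pairs and no member. The lowest unadjusted p of a member in whole libraries was 0.0882.

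At P3 the libraries free of shared cells gave 1 Jag1Ndr/Ndr and 1 Jag1Ndr/+ sample, so that the values describe these libraries with no replicate check. The Jag1Ndr/Ndr library held no barcode under 2399 UMIs, whereas 3784 barcodes of the Jag1Ndr/+ library had fewer than 2000, and picking by jaundice applied to Jag1Ndr/Ndr pups only. Of 89 members with at least 100 UMIs, the exact Poisson intervals were apart with Jag1Ndr/Ndr higher for 46 and lower for 24. These intervals cover counting error only. The share apart was 78.7% of these members against 59.5% of all genes with that many UMIs. Intervals narrow as counts rise, and UMI counts were not matched between members and all genes, so these shares cannot be compared directly. With globin and mitochondrially encoded genes left out of the total the counts were 34 higher and 33 lower, so the direction depended on the denominator. With only barcodes of at least 2000 UMIs, a setting chosen after seeing the data, they were 34 and 32 over all UMIs and 29 and 34 outside globin and mitochondrial genes. The median ratio was 1.03 over all UMIs and 0.997 outside globin and mitochondrial genes. Over all UMIs 2 members differed by more than 1.5-fold, against 13.4% of all genes, and only Atp5k did outside globin and mitochondrial genes or with at least 2000 UMIs. They were Atp5k, at 120.1 (118 to 122) and 234 (231 to 238) CPM, and Atp5g2, at 435 (430.5 to 439) and 283 (279 to 286). Libraries A and B, of unclear genotype, were split in the same way. In normalised CPM Atp5k was at 105 and 176 in A and B, beside 97.1 in Jag1Ndr/Ndr and 181 in Jag1Ndr/+. Atp5g2 was at 429 and 266 in A and B, beside 351 and 218. The source of this split was not tested. Within complex II the ratio was 1.38 for Sdhb, 1.17 for Sdhc, 0.966 for Sdha and 0.816 for Sdhd.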

How the data were processed

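Single-cell libraries were read as deposited raw UMI counts per gene and barcode, per the file headers, which name 10x software 3.1.0 for E16.5 and 3.0.2 for P3. The submitters' processing notes name Cell Ranger 2.1.1, R 4.1.2, Seurat and mm10, and the version differs from that of the headers. Kept barcodes held 1000 UMIs or more, of which mitochondrially encoded ones made up 15% or less. Doublets were scored against simulated ones and called at the rate of 0.008 of a library for each 1000 barcodes, or 12.02% to 23.23% of a library. They were left out of the sums by class and cluster. Whole-library sums kept them, and their removal was an alternative run for the tests of whole libraries. Cells were clustered per age (2000 variable genes without the members and mitochondrially encoded genes, 30 components, Leiden resolution 1) with scikit-learn 1.9.0 and igraph 0.11.9. Clusters were named from markers, and counts were summed per class and library where at least 20 cells were present.

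Sums were tested with edgeR 4.0.16 (TMM, filterByExpr, quasi-likelihood F test, Benjamini-Hochberg adjustment over all genes or all pairs of class and gene, 0.05). Alternatives were DESeq2 1.42.0, RLE factors, no filter, other doublet, UMI, mitochondrial, globin and cluster settings, a replicate block and leaving out each library. The test scripts were tested on simulated data. Genes named were all members of the paralog families and the 4 Sdh genes, and, per comparison and complex, up to 3 called members (2 in class comparisons) with the largest log2 difference, a mean of at least 20 CPM in a group and groups that did not overlap. Other members named in the text were chosen after their values were seen. Members, gene lists and tests were chosen with earlier results of these data known. The gene lists were the mitochondrially encoded subunits, subunits and assembly factors outside the symbol rule, the tricarboxylic acid cycle, glycolysis, regulators of mitochondrial genes, both ribosomes and globin. Nothing states whether replicates came from separate animals beyond the design's 2 individuals per group. In the comparisons of age and of genotype, p-values thus measure the spread between these libraries. In the class comparisons and the interaction, library is a block. Their p-values measure the spread of class sums left after each library's own level is taken out. The values of 1 member and 1 list of similar genes are not reported here.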

Additional observations from a re-analysis of the deposited data

Results flagged for a closer look

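Chance marks about 1 in 20 groups in the search for a library far from the others, and 13 of 88 groups were marked. E16.5 Jag1Ndr/+ replicate 1 accounted for 11 of them. Its summed level of the OXPHOS genes was 31970.5 in endothelial-like cells (the others 26266 to 27482), 34349 in macrophage-like cells (27505 to 28604), 29818 in monocyte-like cells (26572 to 27228), 31939 in neutrophil precursor-like cells (26689 to 27405) and 31706 in stem and progenitor-like cells (26789 to 27419), in CPM outside globin and mitochondrial genes.

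In whole libraries the same sample lay above the other 4 in normalised CPM for Atp5g1 (492.8), Atp5g3 (398), Cox7a2 (752), Ndufa4 (858), Ndufab1 (281) and Ndufb3 (206). Cox6a2 was highest in E16.5 Jag1Ndr/Ndr replicate 2, at 4.04 against 2.01 to 2.5. At P3 Cox6c was lowest in library B, at 279 against 352 to 365. The age difference itself differed between hepatocyte-like and erythroid-like cells for 56 members by the interaction test.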

How the results depend on the processing

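Total counts of members called per comparison stayed within 1.5 times their value under every alternative run, except the comparison of ages in whole libraries with P3 libraries A and B left out, a setting chosen after seeing the data, which called 25 and not 39. Counts by class and direction moved more: over the alternatives the lower count against other classes ran from 26 to 73 in mesenchymal-like cells at E16.5 and from 25 to 52 in neutrophil-like cells at P3, and between ages the higher count of dendritic-like cells ran from 2 to 13. Leaving out 1 library at a time gave 30 to 40 members in whole libraries, 398 to 499 pairs within classes, 47 to 63 for the interaction, 719 to 760 and 618 to 786 for the class comparisons at E16.5 and P3, and 0 for genotype. With the replicate number as a block, the counts were 37, 461 and 0. Same-numbered libraries correlated at −0.295 to 0.167 across ages, and differently numbered ones at −0.215 to 0.253. At E16.5 the values were 0.0528 to 0.276 and −0.276 to −0.0528. With 2 Jag1Ndr/Ndr libraries these E16.5 sets mirror each other by construction and cannot decide. The numbers were thus not shown to pair the libraries.

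Some uncalled age differences changed sign. With 1 library left out Atp5g1 lay at −0.0679 to 0.205, Atp5g2 at −0.203 to 0.122 (−0.0858 without the shared library, 0.0526 without library B) and Cox6a2 at −0.0453 to 0.242. Atp5g1 was at −0.0113 with the replicate block, and Cox6a2 at −0.0123 with 2000 UMIs or more and −0.0985 with 10% mitochondrial UMIs or less. Without libraries A and B, Cox4i2 was at −0.14, from 0.61 with all libraries, and Cox8a at 0.0159; the causes were not tested. Atp5md was no longer called without E16.5 Jag1Ndr/+ replicate 1, E16.5 Jag1Ndr/Ndr replicate 2, library B or libraries A and B (−0.47, −0.55, −0.42 and −0.39), nor Cox7a2 without A and B (−0.43), nor Ndufa4l2 without P3 Jag1Ndr/Ndr or Jag1Ndr/+ (−0.82 and −0.86). Calls were gained for Cox4i2 without P3 Jag1Ndr/+ (0.81), Cox6a1 without P3 Jag1Ndr/Ndr (−0.499) and Cox6b2 without A and B (0.55). The minimum of 2000 UMIs removed no E16.5 barcode, the lowest holding 2295, so it was not run for comparisons within E16.5.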
